A study of Mus musculus with 6 samples.

Results

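D-type cyclins, their kinase partners, a set of CDK inhibitors and the pocket proteins they act on were followed in embryonic mouse kidneys. The 10 genes Ccnd1, Ccnd2, Ccnd3, Cdk4, Cdk6, Cdkn1b, Cdkn2c, Cdkn2d, Rb1 and Rbl1 were taken by name from a deposited table of 13203 genes, and all 10 were in it. The mutant kidneys had the genotype Six2Cre Brg1flx/flx, that is, a Cre recombinase driven by Six2 and floxed alleles of the chromatin remodelling ATPase Brg1 (3 kidneys at E17.5). The control kidneys were Brg1 flx/flx at the same stage (3 kidneys), which the design text calls wild type. Both groups carried the floxed alleles, and the mutant alone is labelled with Cre. Effects of the Cre and of the deletion cannot be told apart. Six2 is expressed in nephron progenitors, so recombination is directed to the nephron lineage, whereas the RNA came from whole kidneys with their stroma, vessels, ureteric tree and blood. Library names mut1 to mut3 and con1 to con3 are those of the table, and whether the kidneys came from separate litters is not given in the sources used here.

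D-type cyclins couple growth signals to the cell cycle. They bind CDK4 or CDK6, and the active kinase phosphorylates the retinoblastoma family of pocket proteins, which releases E2F transcription factors and allows entry into S phase. INK4 proteins bind CDK4 and CDK6 and block them, while proteins of the CIP/KIP family such as p27 bind cyclin-CDK complexes. In the developing kidney the balance between progenitor renewal and nephron formation goes along with changes in cell cycle activity.

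Values are normalised coverage, the number of sequenced bases over a gene scaled by the authors to a common library total, given in kb (1000 scaled bases). Coverage is not divided by gene length, so levels of different genes are compared only where they are given per kb of exon. Unscaled totals were 934.3 to 1209.3 Mb in mutant and 726.1 to 1126.3 Mb in control libraries. Fold changes are mutant minus control on the log2(value + 1) scale, with the standard error (SE) and Benjamini-Hochberg adjusted p of limma fitted to all genes, and a gene passed at an adjusted p under 0.05. Smarca4, which encodes Brg1, had 316, 333 and 268 kb in mutant and 434, 419 and 371 kb in control libraries, a log2 fold change of -0.42 (SE 0.10, limma adjusted p = 0.00481). The groups did not overlap. That call was lost with the deposited p-values after Benjamini-Hochberg adjustment (adjusted p = 0.0581). The values cover the whole gene, so they do not measure the floxed exons alone. Globin genes held 1.58 to 1.68% of coverage in mutant and 0.737 to 0.817% in control libraries, and snoRNA genes 0.300 to 0.638% in mutant and 1.70 to 2.33% in control libraries.

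The 2 most abundant D-type cyclins moved in opposite directions. Ccnd1 was 2.06-fold lower and Ccnd2 was 1.99-fold higher in mutant kidneys, and Ccnd3 did not pass. Among the 10 genes 1 rose (Ccnd2), 3 fell (Ccnd1, Rb1 and Rbl1) and 6 did not pass. Over all genes 21.5% rose and 24.6% fell, together 46.1%, so 4 of 10 is near the share in the whole table. Mutant and control libraries did not overlap in 4 of the 10 genes (Ccnd2 and Ccnd3 above, Ccnd1 and Rb1 below), against 26.5% of all genes above, 29.8% below and 56.4% in all. The median log2 fold change was 0.06 over the 10 genes and -0.03 over all genes.

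**Figure D1:**
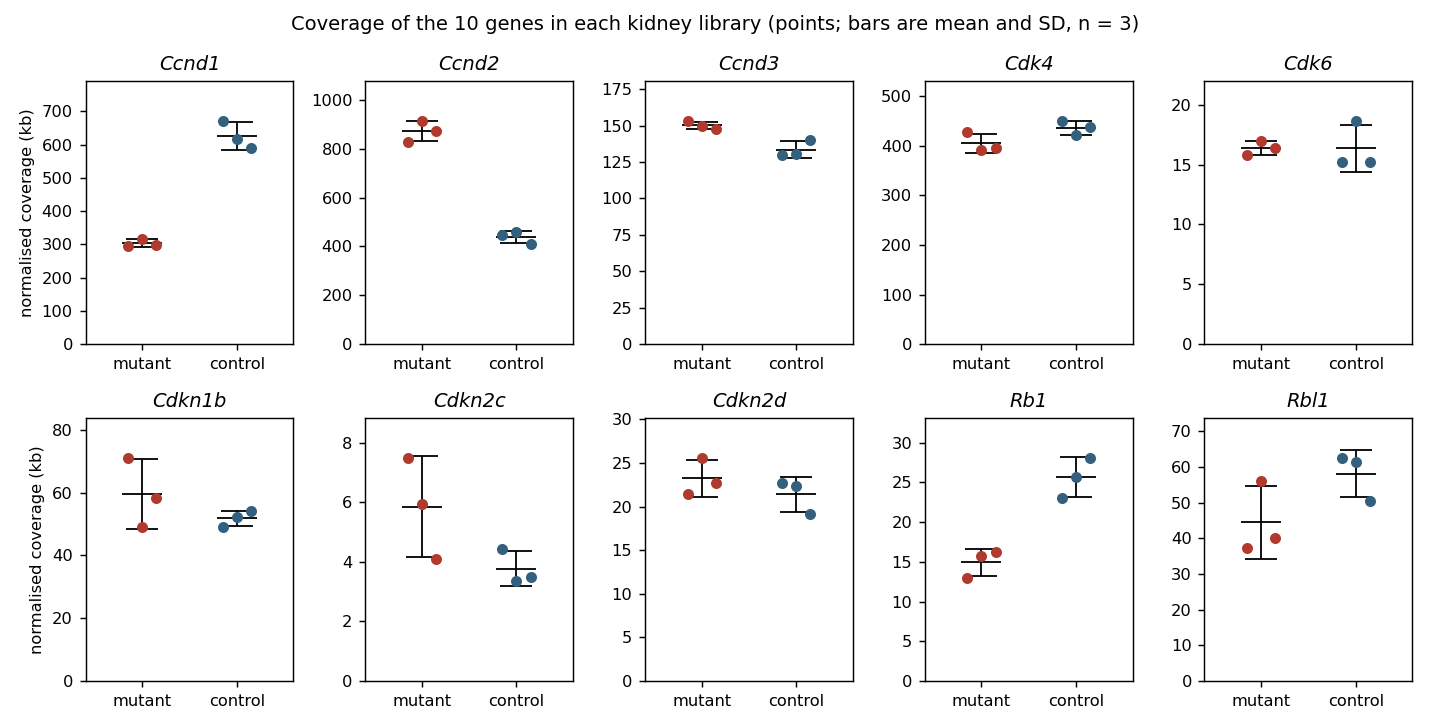
Normalised coverage in kb (vertical axes, from 0) of each of the 10 genes in the 3 mutant and the 3 control libraries; points are libraries and bars are mean and SD. Ccnd1 lies at 295 to 317 kb in mutant and 589 to 671 kb in control, whereas Ccnd2 lies at 829.8 to 913 kb in mutant and 409.6 to 459.5 kb in control.

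Ccnd1 encodes cyclin D1 (chromosome 7, 144929931 to 144939925, minus strand, mm10). Its coverage was 295, 317 and 298 kb in mutant and 671, 617 and 589 kb in control libraries. Every mutant library lay below every control library, and the highest mutant value was 317 kb against a lowest control value of 589 kb. The mean was 303 ± 11.8 kb in mutant and 626 ± 41.6 kb in control (SD, n = 3 each). The log2 fold change was -1.04 (SE 0.08, limma adjusted p = 2.55e-06). It was the only one of the 10 genes to pass with a change of at least 2-fold, as 11.7% of all genes did. An exact two-sided permutation test gave p = 0.1, the smallest p that 3 against 3 allows. In whole-organ RNA, fewer cells of a type and less RNA per cell cannot be told apart. Of the exons of Ccnd1, 23.4% lie opposite exons of Oraov1, and strand use in counting is not given in the sources used here. Oraov1 itself had 18.6, 24.2 and 23.04 kb in mutant and 26.7, 23.9 and 24.2 kb in control libraries (log2 fold change -0.19, limma adjusted p = 0.270), which is far below the coverage of Ccnd1 in each library.

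Ccnd2 encodes cyclin D2 (chromosome 6, 127125162 to 127152193, minus strand). It had 829.8, 913 and 872 kb in mutant and 447, 459.5 and 409.6 kb in control libraries. All 3 mutant libraries were above all 3 control libraries. The mean was 872 ± 41.6 kb in mutant and 439 ± 25.98 kb in control (SD, n = 3 each). The log2 fold change was 0.99 (SE 0.08, limma adjusted p = 3.65e-06, exact permutation p = 0.1). In the authors' deposited table the ratio of mutant to control means was 0.485 for Ccnd1 and 1.99 for Ccnd2. The authors' deposited table of lower genes, which takes ratios below 0.5, holds Ccnd1, and their table of higher genes, which takes ratios above 2, does not hold Ccnd2. Changes of Ccnd1 and Ccnd2 were larger in size than those of 88.8% and 87.8% of all genes.

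Ccnd3, for cyclin D3 (chromosome 17, 47505051 to 47599691, plus strand), had 153, 149 and 148 kb in mutant and 130.1, 130.3 and 140.3 kb in control libraries. The mutant libraries were again all above the control libraries, but by a small margin. The log2 fold change was 0.17 with a 95% interval of -0.00 to 0.34 (limma adjusted p = 0.0971), and Ccnd3 did not pass. It passed with the deposited p-values after Benjamini-Hochberg adjustment (adjusted p = 0.0400).

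The ratio of Ccnd1 to Ccnd2 within a library needs no scaling between libraries. Ccnd1 had 0.355, 0.347 and 0.342 times the coverage of Ccnd2 in mutant libraries and 1.5, 1.34 and 1.44 times in control libraries. Ccnd1 thus had the higher coverage of the pair in each control library and the lower in each mutant library. The log2 ratio averaged -1.52 ± 0.028 in mutant and 0.51 ± 0.080 in control (SD, n = 3 each), a difference of -2.03 or 4.10-fold. The ratio of Ccnd1 to Ccnd3 was 2.32-fold lower in mutant, with a difference of -1.21, and that of Ccnd2 to Ccnd3 was 1.77-fold higher, with a difference of 0.82. In each of these 3 pairs the groups did not overlap, and the exact two-sided permutation test gave p = 0.1, or 0.2 adjusted over the 6 pairs compared. With 3 libraries a group no pair could pass that test.

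Per kb of exon, Ccnd2 took the place of Ccnd1 as the D-type cyclin with the highest level. Ccnd1 stood at 62.6, 67.2 and 63.3 kb per kb in mutant and 142, 131 and 125 kb per kb in control libraries. Ccnd2 stood at 88.2, 97.0 and 92.7 kb per kb in mutant and 47.5, 48.8 and 43.5 kb per kb in control libraries. Of the summed per-length level of the 3 D-type cyclins, Ccnd1 held 37.0 ± 0.30% in mutant and 68.2 ± 1.19% in control (SD, n = 3 each). Ccnd2 held 53.2 ± 0.66% in mutant and 24.0 ± 0.99% in control, and Ccnd3 held 9.8 ± 0.49% in mutant and 7.8 ± 0.74% in control. The sum itself was 168, 181 and 173 kb per kb in mutant and 205, 195 and 185 kb per kb in control libraries, so the mutant values lay just below the control values. With the length of the principal transcript in place of all exons the sum was 282 to 300 kb per kb in mutant and 289 to 312 kb per kb in control, and the groups overlapped. That length gave Ccnd3 24.5% in mutant and 21.1% in control, because its principal transcript is 2.11 kb long and its exons cover 8.78 kb. The order of Ccnd1 and Ccnd2 in each group was alike under both lengths.

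**Figure D2:**
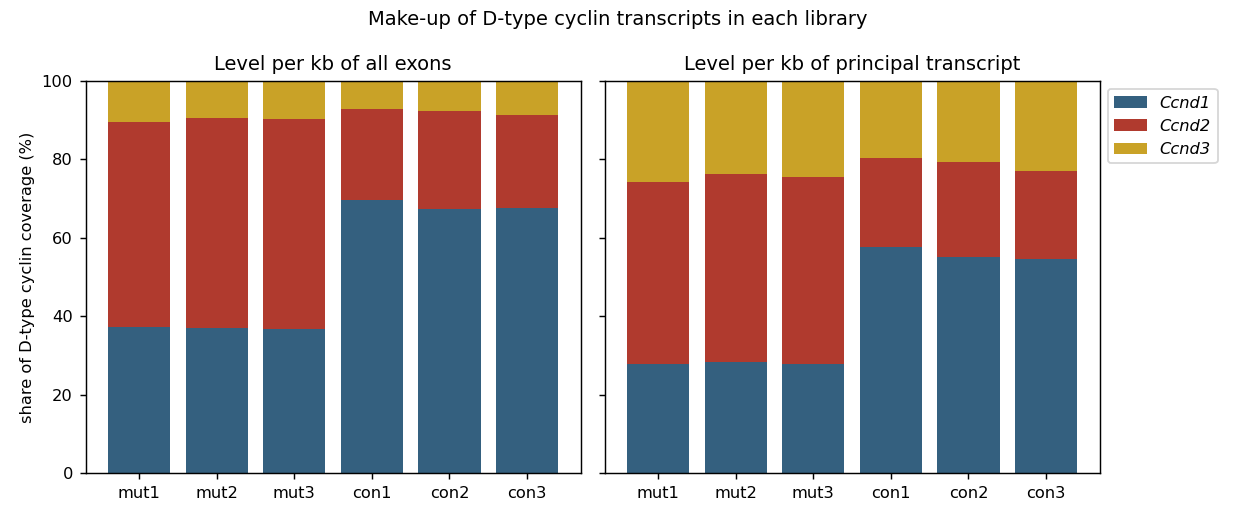
Share of each D-type cyclin (percent, vertical axis) in the summed per-length coverage of Ccnd1, Ccnd2 and Ccnd3 in each library (mutant left, control right), with levels per kb of all exons (left panel) or per kb of the principal transcript (right panel). Ccnd1 takes 36.6 to 37.2% in mutant and 67.3 to 69.6% in control in the left panel, and Ccnd2 takes 52.4 to 53.6% in mutant and 23.2 to 25.1% in control.

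The kinase partners did not pass. Cdk4, which encodes the kinase that D-type cyclins activate (chromosome 10, 127063534 to 127067920, plus strand), had 427, 392 and 396 kb in mutant and 449.6, 422 and 438 kb in control libraries. The groups overlapped, with a log2 fold change of -0.11, a 95% interval of -0.27 to 0.06 and a limma adjusted p = 0.255. Of its exons 19.7% lie opposite those of Tspan31, which had 115, 121 and 110.1 kb in mutant and 127, 117 and 133 kb in control libraries.

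Cdk6, the second D-type cyclin kinase (chromosome 5, 3341485 to 3531008, plus strand), had 15.8, 16.9 and 16.4 kb in mutant and 15.2, 18.6 and 15.2 kb in control libraries. Its log2 fold change was 0.01 with a 95% interval of -0.30 to 0.32 (limma adjusted p = 0.976). Per kb of exon, Cdk4 held 99.1% of the summed level of the pair in mutant and 99.1% in control. Cdk4 thus ranked above 97.9% of all genes in per-length level, and Cdk6 above 6.5%. The ratio of Cdk4 to Cdk6 differed by -0.12 on the log2 scale between mutant and control (exact permutation p = 0.5).

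Promoter sequence is shown for the kinase gene that carries nearly all of the pair's coverage, and for Rbl1, which passed as lower. RefSeq promoters on GRCm38.p6 were matched for 7 of the 10 genes, and not for Ccnd1, Ccnd2 and Rb1. The windows are the 250 bases before the transcription start on the gene's own strand, chr10:127063285-127063534 (plus) for Cdk4 and chr2:157204535-157204784 (minus) for Rbl1.
Cdk4: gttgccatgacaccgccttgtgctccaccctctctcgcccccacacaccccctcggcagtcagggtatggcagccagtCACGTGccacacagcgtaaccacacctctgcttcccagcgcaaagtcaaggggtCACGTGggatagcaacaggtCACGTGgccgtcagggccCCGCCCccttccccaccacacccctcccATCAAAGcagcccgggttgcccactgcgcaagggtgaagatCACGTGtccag
Rbl1: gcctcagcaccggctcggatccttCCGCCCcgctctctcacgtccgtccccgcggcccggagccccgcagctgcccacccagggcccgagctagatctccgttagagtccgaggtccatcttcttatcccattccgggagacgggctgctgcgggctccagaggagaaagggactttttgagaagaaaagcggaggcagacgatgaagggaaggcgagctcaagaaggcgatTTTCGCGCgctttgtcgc
Capitals mark matches, on either strand, to the E-box CACGTG, the E2F motifs TTTGGCGC, TTTCCCGC, TTTCGCGC and TTTGCCGC, the GC box GGGCGG, the LEF/TCF motif CTTTGAT and the CRE motif TGACGTCA, and no match overlaps another in these windows. The Cdk4 window holds 4 E-boxes, the sequence bound by MYC family proteins, where 6.02% of 32851 promoter windows of this length hold at least 1 and 0.021% hold 4 or more. The Rbl1 window holds 1 E2F motif, where 1.86% of windows hold any of the 4 E2F motifs. GC boxes, present once in each of these windows, occur in 32.7% of windows. Among the other matched genes, the Cdk6 window holds 1 E-box and no other match. The windows of Ccnd3, Cdkn1b, Cdkn2c and Cdkn2d hold no match other than GC boxes. The E-box of Cdk4 and the E2F motif of Rbl1 are matches of letters, and binding was not measured here.

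CDK inhibitors of the 10 genes were all at higher mean coverage in mutant kidneys and none passed. Cdkn1b encodes p27, a CIP/KIP inhibitor that also binds cyclin D-CDK complexes (chromosome 6, 134920401 to 134925513, plus strand). It had 71.1, 49.0 and 58.4 kb in mutant and 49.2, 52.2 and 54.1 kb in control libraries. Library mut2 lay below all control libraries while mut1 and mut3 lay above them. The log2 fold change was 0.18 (SE 0.13, limma adjusted p = 0.267), and without mut2 it was 0.32 and passed at adjusted p = 0.0492. Without mut1 it was 0.05 (adjusted p = 0.752), and no other alternative brought a call.

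Cdkn2c encodes the INK4 inhibitor p18 (chromosome 4, 109660876 to 109667189, minus strand). It had 7.48, 5.94 and 4.10 kb in mutant and 4.43, 3.35 and 3.50 kb in control libraries, and only mut3 overlapped the control range. Its log2 fold change of 0.60 was the largest among the inhibitors, with a 95% interval of -0.03 to 1.23 (SE 0.29, limma adjusted p = 0.107). It passed without mut3, at 0.84 and adjusted p = 0.0420. Without mut1 the change was 0.40 (adjusted p = 0.317), and no other alternative brought a call. Cdkn2c was also the gene of the 10 with the widest spread, with a highest mutant value 1.82 times the lowest.

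Cdkn2d encodes the INK4 inhibitor p19 (chromosome 9, 21288410 to 21291407, minus strand). It had 21.4, 25.6 and 22.7 kb in mutant and 22.7, 22.4 and 19.1 kb in control libraries, so the groups overlapped (log2 fold change 0.12, 95% interval -0.17 to 0.41, limma adjusted p = 0.481). Per kb of exon, Cdkn2d and Cdkn1b made up most of the summed inhibitor level, at 49.4 ± 6.58% and 43.4 ± 6.06% in mutant and 51.5 ± 3.07% and 43.2 ± 3.39% in control (SD, n = 3 each). Cdkn2c held 7.2 ± 1.73% in mutant and 5.3 ± 0.77% in control. The ratio of Cdkn2c to Cdkn2d differed by 0.48 on the log2 scale between mutant and control, and the groups overlapped (exact permutation p = 0.3).

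Of the other inhibitors listed, Cdkn1a, Cdkn1c and Cdkn3 were in the table, and Cdkn2a and Cdkn2b were not analysed here. Cdkn1a encodes p21, a CIP/KIP inhibitor and p53 target. It rose, with 82.6, 62.3 and 84.8 kb in mutant and 47.2, 44.4 and 59.9 kb in control libraries (log2 fold change 0.60, SE 0.14, limma adjusted p = 0.00528). That call was lost with the deposited p-values after Benjamini-Hochberg adjustment (0.0891). Cdkn1c, for the CIP/KIP protein p57, which is abundant in podocytes, had 793, 610.1 and 798 kb in mutant and 702, 623 and 613 kb in control libraries and did not pass (0.18, adjusted p = 0.206). It was singled out after its values were seen, and passed without mut2 (adjusted p = 0.0150) and with the length trend removed (0.0411). Among the mutant libraries mut2 was the lowest for Cdkn1a, Cdkn1b and Cdkn1c. It was the highest for Cdkn2d and Cdkn3 and lay between mut1 and mut3 for Cdkn2c.

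Both pocket protein genes among the 10 passed as lower, Rb1 under every alternative run and Rbl1 under few. Rb1 encodes the retinoblastoma protein, the substrate of cyclin D kinases (chromosome 14, 73183673 to 73325822, minus strand). It had 13.0, 15.7 and 16.2 kb in mutant and 23.07, 25.7 and 28.1 kb in control libraries. The groups did not overlap, with means of 14.95 ± 1.71 kb in mutant and 25.6 ± 2.52 kb in control (SD, n = 3 each). The log2 fold change was -0.78 (SE 0.14, limma adjusted p = 0.00102, exact permutation p = 0.1), or 1.72-fold lower. Exons of Lpar6 and Rcbtb2 on the other strand overlap 6.8% and 8.1% of its exons. Lpar6 had 26.7, 37.2 and 31.1 kb in mutant and 34.5, 39.3 and 29.4 kb in control libraries, more than Rb1 in each library, and overlapped between groups (log2 fold change -0.12, adjusted p = 0.528). Rcbtb2 had 69.4 to 74.2 kb in mutant and 69.5 to 77.2 kb in control libraries.

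Rbl1 encodes p107, a pocket protein that pairs mainly with E2F4 and E2F5 and is itself known as an E2F target (chromosome 2, 157145893 to 157204534, minus strand). It had 37.2, 56.0 and 40.2 kb in mutant and 62.5, 61.3 and 50.4 kb in control libraries. Library mut2 was above con3, so the groups overlapped. The log2 fold change was -0.40 (SE 0.15, limma adjusted p = 0.0469). Rbl1 kept its call under 5 of 16 alternatives, with adjusted p from 0.00339 without mut2 to 0.203 with the deposited p-values after Benjamini-Hochberg adjustment. It lost the call without con1 (adjusted p = 0.145), con2 (0.139), mut1 (0.151) or mut3 (0.144). The ratio of Rb1 to Rbl1 differed by -0.38 between mutant and control, and the groups overlapped (exact permutation p = 0.2).

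**Figure D3:**
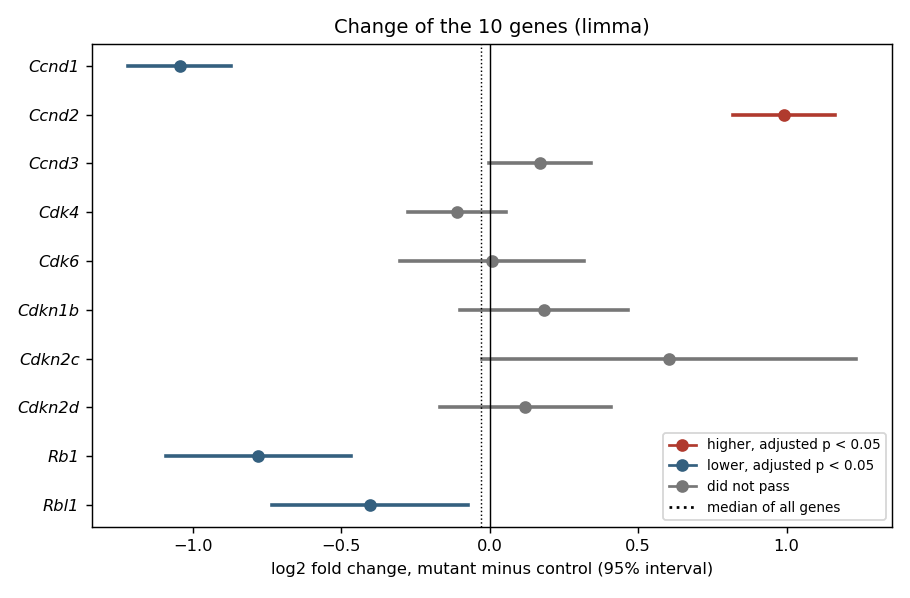
Log2 fold change, mutant minus control, of the 10 genes (points) with the 95% interval of limma (lines); colours mark genes that passed at an adjusted p under 0.05 and the dotted line is the median of all genes (-0.03). Ccnd1 at -1.04 and Ccnd2 at 0.99 stand at the ends, Rb1 is at -0.78, and the intervals of the 6 genes that did not pass include 0.

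In per-length level the 10 genes lay between the 6.5 percentile of all genes (Cdk6) and the 97.9 percentile (Cdk4). In mutant libraries the order was Cdk4 (125 kb per kb), Ccnd2 (92.6), Ccnd1 (64.4), Ccnd3 (17.1), Cdkn2d (14.8), Cdkn1b (13.1), Rbl1 (7.41), Rb1 (2.49), Cdkn2c (2.17) and Cdk6 (1.17). In control libraries it was Cdk4 (134), Ccnd1 (133), Ccnd2 (46.6), Ccnd3 (15.2), Cdkn2d (13.6), Cdkn1b (11.4), Rbl1 (9.69), Rb1 (4.26), Cdkn2c (1.40) and Cdk6 (1.17). Libraries overlapped between Cdkn2d and Cdkn1b and between Rb1 and Cdkn2c in mutant, and between Cdk4 and Ccnd1 and between Cdkn2c and Cdk6 in control. These orders rest on the length of all annotated exons. The level of Ccnd3 depends most on it, but its place in the order does not change with principal transcript lengths. In control, Rbl1 comes before Cdkn1b by those lengths. Exons of Rbl1 cover 5.99 kb and its principal transcript 4.86 kb, while both lengths are 4.55 kb for Cdkn1b.

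Centred log2 profiles over the 6 libraries were compared among 12196 genes with names in the usual style of a gene symbol. Nearest to Ccnd2 were Vcan, Fbn2 and Cped1, at Euclidean distances of 0.086, 0.116 and 0.122 against a median of 1.32. Their log2 fold changes were 1.01, 0.99 and 0.99. The distance includes the difference between the groups, so near profiles have a like fold change. Vcan encodes the matrix proteoglycan versican and Fbn2 the microfibril protein fibrillin-2. Nearest to Ccnd1 were Papss2, an enzyme of sulfate activation, Crocc, which encodes the ciliary rootlet protein, and Sqle, an enzyme of cholesterol synthesis, at distances of 0.138, 0.148 and 0.151 against a median of 1.33. The log2 fold changes of Papss2, Crocc and Sqle were -1.05, -1.09 and -1.04.

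Downstream of the pocket proteins, transcripts of S phase genes were mostly lower. Of 28 genes known as E2F targets 22 fell, none rose and 6 did not pass, against 24.6% lower and 21.5% higher among all genes, and the median log2 fold change was -0.55. Rrm2, the small subunit of ribonucleotide reductase, had 40.8, 49.9 and 39.5 kb in mutant and 95.6, 85.8 and 72.8 kb in control libraries (log2 fold change -0.96, limma adjusted p = 0.000106). Mutant and control libraries did not overlap. Ung (-0.94), a uracil DNA glycosylase, and Gins1 (-0.95), of the replicative helicase, fell too. With the deposited p-values after Benjamini-Hochberg adjustment 10 of the 28 fell, and Gins1 was no longer among them (adjusted p = 0.0531).

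Genes of mitosis moved likewise, with 17 of 22 lower, none higher, 5 that did not pass and a median of -0.50. The share lower among all genes was 24.6%. Summed coverage of the 22 genes overlapped between groups, at 1719 to 2468 kb in mutant and 2242 to 2794 kb in control libraries. With 1 library left out 14 to 21 of the 22 fell. With the deposited p-values after Benjamini-Hochberg adjustment 8 fell. Cdc20, an activator of the anaphase-promoting complex, had 35.8, 29.5 and 26.8 kb in mutant and 66.6, 61.9 and 52.8 kb in control libraries (log2 fold change -0.98, limma adjusted p = 0.000131). Ccnb1 (-0.86), for cyclin B1, Ndc80 (-0.88), of the kinetochore, and Birc5 (-0.85), which encodes survivin, fell as well. Mki67, the proliferation marker Ki-67, did not pass, at 498, 734 and 404 kb in mutant and 583, 609.5 and 432 kb in control libraries (-0.02, adjusted p = 0.945). Library mut2 was the highest of the mutant libraries for Mki67, Rbl1 and Rrm2.

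Of 10 measured genes of the later G1 to S step and CDK1 control, 4 fell, none rose and 6 did not pass, with a median of -0.17. The shares over all genes were 24.6% lower and 21.5% higher, together 46.1%, so 4 of 10 that passed is near the share in the whole table. Ccne2, for cyclin E2, had 7.92, 14.6 and 12.6 kb in mutant and 24.01, 25.2 and 20.9 kb in control libraries (log2 fold change -1.04, limma adjusted p = 0.00192). Ccna2 (-0.65), for cyclin A2, Cdk1 (-0.66) and its activating phosphatase Cdc25c (-0.94) fell too. Ccne1, for the other cyclin E, and Cdk2 did not pass, at 0.01 (adjusted p = 0.979) and -0.18 (0.0962), and were named after their values were seen. Cdk2 passed with the length trend removed (adjusted p = 0.0491) and with the deposited p-values after Benjamini-Hochberg adjustment (0.0187). The call of Ccna2 was lost with the deposited p-values after Benjamini-Hochberg adjustment (0.0569).

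Among E2F and DP factors 3 of 10 fell, none rose and 7 did not pass, with a median of -0.21. The share lower is near the 24.6% of the whole table, where 21.5% rose. E2f3, an activating E2F bound by the retinoblastoma protein, had 71.0, 79.0 and 71.2 kb in mutant and 119, 105 and 111 kb in control libraries (log2 fold change -0.60, limma adjusted p = 0.000296). E2f5, a repressive E2F bound by p107 and p130, had 18.4, 23.4 and 22.6 kb in mutant and 31.0, 32.4 and 34.3 kb in control libraries (-0.61, adjusted p = 0.00262). The dimer partner gene Tfdp1 fell as well (-0.67, adjusted p = 0.000462). Groups did not overlap for E2f3, E2f5 and Tfdp1, nor for Tfdp2, which did not pass (-0.20, limma adjusted p = 0.101). All 3 mutant libraries thus lay below all 3 control libraries in 4 of the 10 genes, against 29.8% of all genes. In none of the 10 did they lie above, against 26.5% of all genes.

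Of 8 measured genes of the DREAM and MuvB complexes, which join pocket proteins to cell cycle promoters, 2 fell and 6 did not pass, with a median of -0.20. That count is near the share of 24.6% lower among all genes. Those of the 8 that fell were Mybl2 (-0.73, limma adjusted p = 0.00299) and the histone chaperone Rbbp4 (-0.36, adjusted p = 0.00268). Mybl2 lost its call with the deposited p-values after Benjamini-Hochberg adjustment (0.0653), which left 1 of the 8. Rbl2, for the third pocket protein p130, had 54.8, 50.8 and 61.05 kb in mutant and 40.04, 49.7 and 47.8 kb in control libraries, and was named after its values were seen. All mutant libraries were above all control libraries, and Rbl2 did not pass (0.28, adjusted p = 0.0672, and between 0.0282 and 0.266 when the processing was varied). It passed with array weights (adjusted p = 0.0448), without mut2 (0.0460) and under quantile normalization (0.0282).

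Of 20 genes that act in the turnover of cyclin D and p27 proteins 5 fell, none rose and 15 did not pass, with a median of -0.10. Over all genes 24.6% fell and 21.5% rose, so 5 of 20 lower is near the share in the whole table. Skp2, the F-box protein that directs p27 to degradation, had 58.8, 75.1 and 67.6 kb in mutant and 95.6, 92.0 and 86.8 kb in control libraries (log2 fold change -0.45, limma adjusted p = 0.00449). Its cofactor gene Cks1b had 19.2, 20.04 and 18.1 kb in mutant and 32.4, 27.8 and 28.1 kb in control libraries (-0.62, adjusted p = 0.00167). The related Cks2 (-0.90) fell, but its change was -0.41 with adjusted p = 0.116 once the trend with gene length was removed. Usp10 (-0.32), a deubiquitinase, also fell, and lost its call without con3 (0.0528). Skp1a (-0.32) was the fifth that fell, and lost its call with the length trend removed (0.0706). Fbxo4, an F-box protein reported to act on cyclin D1, had 9.88, 11.7 and 12.5 kb in mutant and 8.04, 7.18 and 9.46 kb in control libraries and was named after its values were seen. Its mutant libraries were all above its control libraries, and it did not pass (0.47, limma adjusted p = 0.0570). It passed as higher under 9 of 15 alternatives, among them each of the 4 other scalings, with adjusted p from 0.0193 to 0.179 over all of them.

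Of 6 genes of the CDK-activating kinase and of the chaperones that fold CDK4, Hsp90aa1 fell (127, 167 and 125 kb in mutant and 253, 231 and 206 kb in control libraries, log2 fold change -0.73, limma adjusted p = 0.000521) and 5 did not pass. Under 5 of 15 alternatives 2 of the 6 fell. Their median was -0.19, and 24.6% of all genes fell. Among 23 other cyclins and CDKs 1 rose and 3 fell, with a median of -0.03. Both counts are below the shares over all genes, 21.5% higher and 24.6% lower. Cdk19, a Mediator kinase, rose (0.51, adjusted p = 0.00132) and its relative Cdk8 fell (-0.64, adjusted p = 0.00561). Cdk18 (-0.45) and Ccnf (-0.34) fell too, and Ccnf lost its call without con1 (adjusted p = 0.109), con3 (0.104) or mut3 (0.145), under quantile normalization (0.0640), without the variance trend (0.0899) and with the deposited p-values after Benjamini-Hochberg adjustment (0.135).

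Genes of mitogenic inputs to D-type cyclins moved both ways, with 9 of 20 higher, 5 lower and 6 that did not pass. Their median was 0.19, and over all genes 21.5% rose and 24.6% fell. The list does not separate genes that promote D-type cyclin expression from genes that oppose it. Its counts therefore give no direction of mitogenic input. Mycn, a MYC family factor of progenitors, had 57.1, 51.2 and 49.4 kb in mutant and 111, 113 and 110.4 kb in control libraries (log2 fold change -1.09, SE 0.09, limma adjusted p = 4.86e-06). Etv4, an ETS factor downstream of receptor tyrosine kinases, had 31.3, 30.4 and 23.3 kb in mutant and 78.0, 83.9 and 64.8 kb in control libraries (-1.42, adjusted p = 1.38e-05). In the WNT pathway, Axin2, a feedback target of beta-catenin, had 48.01, 55.4 and 58.8 kb in mutant and 28.4, 20.5 and 16.8 kb in control libraries (1.33, adjusted p = 9.64e-05). Lef1, a transcription factor of that pathway, had 27, 21.9 and 28.8 kb in mutant and 13.1, 12.7 and 12.2 kb in control libraries (1.02, adjusted p = 0.000175). Ctnnb1, for beta-catenin itself, did not pass (-0.01, adjusted p = 0.955) and was named after its values were seen.

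**Figure D4:**
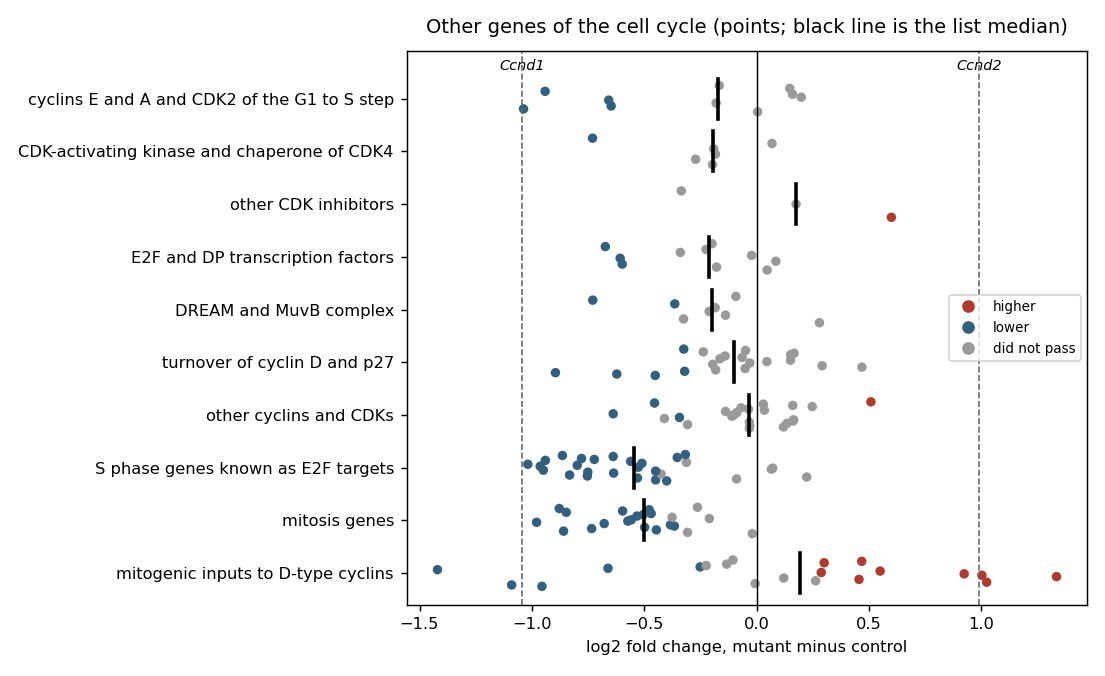
Log2 fold change, mutant minus control, of each measured gene (points) of 10 cell cycle lists, with the list median (black line) and with Ccnd1 and Ccnd2 as dashed lines. S phase and mitosis genes lie mostly below 0, with medians of -0.55 and -0.50, while mitogenic inputs lie on both sides.

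Markers of cell types that could hold these transcripts differed between the groups in the same libraries. Of 14 measured nephron progenitor genes 9 fell and 3 rose (Osr1, Crym and Eya2). The summed coverage of the 14 was 496 to 616 kb in mutant and 837 to 889.6 kb in control libraries. Cited1, of the least committed progenitors, had 3.95, 4.96 and 3.04 kb in mutant and 41.6, 44.9 and 47.3 kb in control libraries. Six2 had 16.7, 15.1 and 9.87 kb in mutant and 21.8, 19.5 and 22.2 kb in control libraries (log2 fold change -0.64, limma adjusted p = 0.0166). The call of Six2 was lost without con1 (0.0521), con3 (0.0514) or mut3 (0.0504) and with the deposited p-values after Benjamini-Hochberg adjustment (0.0771). Of 14 genes of committed progenitors and renal vesicles 13 fell and 1 rose, with sums of 752 to 798 kb in mutant and 1219 to 1336 kb in control libraries. For both lists the shares over all genes are 24.6% lower and 21.5% higher.

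The differentiated nephron was lower as well. Of 14 podocyte genes 12 fell and 1 rose, of 19 proximal tubule genes 18 fell, and of 12 genes of the loop and distal tubule 9 fell and 1 rose. The shares over all genes were 24.6% lower and 21.5% higher. Summed proximal tubule coverage was 1062 to 1341 kb in mutant and 4488 to 5606 kb in control libraries. Slc34a1, a phosphate transporter of that segment, had 136, 86.3 and 88.7 kb in mutant and 371, 367 and 447 kb in control libraries. Podocyte sums were 1241 to 1329 kb in mutant and 2214 to 2389 kb in control libraries, and loop and distal sums 723 to 785 kb in mutant and 925 to 1042 kb in control libraries.

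Stromal markers went the other way, with 19 of 20 higher and 1 that did not pass. Their sum was 11210 to 13830 kb in mutant and 5888 to 6126 kb in control libraries, and Foxd1, a factor of stromal progenitors, had 57.5, 48.8 and 48.2 kb in mutant and 22.1, 20.7 and 15.3 kb in control libraries. Of 12 leukocyte genes 9 rose (sums of 265 to 306 kb in mutant and 135 to 155 kb in control libraries). Of 9 erythroid genes 6 rose and 1 fell (5378 to 6001 kb in mutant and 2709 to 2931 kb in control libraries). Of 9 urothelium genes 5 rose (159 to 216 kb in mutant and 49.9 to 95.2 kb in control libraries). Of 16 genes of the ureteric tip and collecting duct 7 rose and 2 fell (1218 to 1434 kb in mutant and 849 to 1061 kb in control libraries), and of 14 endothelial genes 5 rose and 2 fell (1641 to 1682 kb in mutant and 1429 to 1509 kb in control libraries). For these counts the shares over all genes are 21.5% higher and 24.6% lower. Listed markers with no row in the table were not analysed here. The part of these cell types in the changes of Ccnd1, Ccnd2, Rb1 and the S phase genes was not tested.

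**Figure D5:**
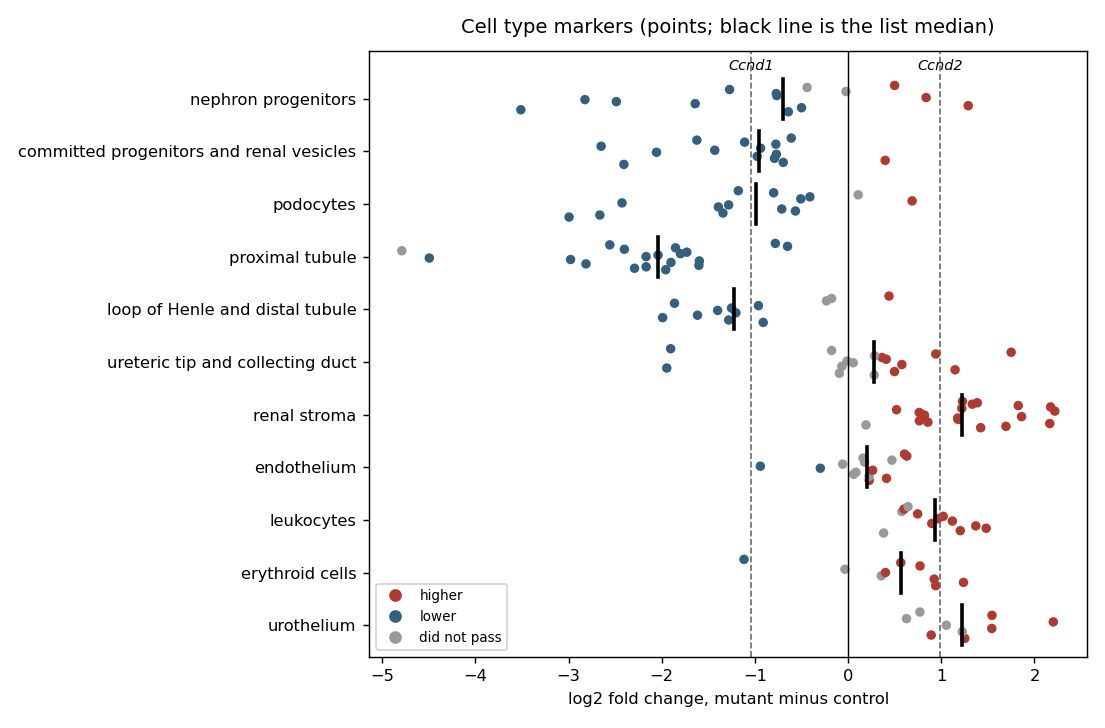
Log2 fold change, mutant minus control, of each measured marker gene (points) of 11 cell types, with the list median (black line) and with Ccnd1 and Ccnd2 as dashed lines. Medians of the nephron lists lie between -2.04 and -0.70, those of stroma and urothelium at 1.22 and 1.23. Ccnd1 is at -1.04 and Ccnd2 at 0.99.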

How the data were processed

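RNA of 3 mutant and 3 control kidneys at E17.5 was depleted of ribosomal RNA and sequenced from Ion Total RNA-seq libraries, per the labels' protocols. The submitters' processing notes name mm10 and bedtools, and the aligner, annotation and use of strand are not given in the sources used here. A normalised coverage signal per gene and library was deposited, with group means, the ratio (fold) of means, and the authors' p-value and q-value. Low coverage values were whole multiples of a fixed step per library (100% within 0.02 of a step), library totals were nearly equal (976.284 to 976.642 Mb), and the higher group mean was at least 3402 units for every gene. Coverage counts bases and not reads, so no count test was used and depth in reads is unknown. The deposited p-value equals that of an equal-variance two-sample test on linear values, and the deposited q-value is 0.307 times its Benjamini-Hochberg adjusted value.

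Values were tested as log2(value + 1) with limma 3.58.1 in R 4.3.3 (mean-variance trend, two-sided), adjusted over all 13203 genes. A filter of more than 1 unit in 3 libraries removed 0 genes. The fit was also run on simulated independent normal values with known changes in few genes. In the data 46.1% of genes passed, so that run does not check these calls. Columns name groups and running numbers, so each was assigned to its group only. P-values measure the spread between these samples, which may be technical. Exon lengths are from GENCODE M21, matched for 99.3% of symbols. Lists are described by counts and medians without a set test. The genes, lists and tests were chosen with earlier results of these data known. Named genes were the 10 genes, Smarca4, 5 markers, the 3 nearest profiles to the largest rise and fall, and up to 4 genes per cell cycle list that passed with the largest change, of which 1 is not reported here. Skp1a, Osr1, Crym, Eya2 and genes that did not pass, apart from the 10 and Mki67, were named after their values were seen. Alternatives covered scaling, pseudocount, filtering, variance model, gene length and each library left out.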

Additional observations from a re-analysis of the deposited data

How the results depend on the processing

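Ccnd1 and Ccnd2 kept direction and call under all 16 alternatives (log2 fold change -1.10 to -0.99 and 0.91 to 1.03), and Rb1 under all 15 that could be run (-0.85 to -0.68). Rbl1 lost its call among genes at or above the median level (-0.40, adjusted p = 0.0508), with trimmed-mean scaling over all genes (-0.38, 0.0580) or leaving out globin and small RNA genes (-0.38, 0.0552), median-ratio scaling (-0.38, 0.0561), quantile normalization (-0.34, 0.0852), no variance trend (-0.40, 0.107) and the deposited p-values adjusted by Benjamini-Hochberg (-0.39, 0.203). With those p-values Smarca4 was at -0.42 (0.0581), Ccnd3 at 0.17 (0.0400), 2 of the 10 genes were higher, 10 S phase and 8 mitosis genes lower. Cdk6 changed sign with array weights (-0.01) and with the length trend removed (-0.13). With 1 library left out, Cdk6 ranged from -0.04 to 0.10, Rbl1 from -0.58 to -0.29, Cdkn1b from 0.05 to 0.32 and Cdkn2c from 0.40 to 0.84, and 1 to 2 of the 10 genes were higher. The filter to genes at or above the median level left 1 of the 10 lower and 3276 genes called, and dropped Cdk6, Cdkn2c, Cdkn2d and Rb1. Principal transcript lengths gave Ccnd1 28.0% of D-type cyclins in mutant and 55.8% in control, Ccnd2 47.5% in mutant, Ccnd3 24.5% in mutant and 21.1% in control, and Cdk4 99.3% of its pair in both groups. That length and the recounts of the lists were chosen after seeing the data. No scaling moved the median of all genes by over 0.1. No paired analysis was possible because the columns carry no animal number and the title numbers are not shared between groups. The number of kidneys and unknown read depth limit what could be detected for low genes such as Cdkn2c.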
